A study of Homo sapiens with 10 samples.

Results

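The S100 genes encode small calcium-binding proteins, and 10 of them were followed in MCF10A cells: S100A2, S100A4, S100A6, S100A7, S100A8, S100A9, S100A10, S100A11, S100A14 and S100P. They were taken by gene symbol, and all 10 were found among 26256 rows of counts of untreated cells and among 55736 rows of the Nutlin-3a experiment. MCF10A is an immortalized, nontransformed epithelial cell line of the human mammary gland. RNA-seq of untreated cells compared 2 libraries of the parental line with 2 libraries of MCF10A cells that carry the G12V HRas oncogene (labelled H-RAS Gv12, here G12V cells). The oncogene was delivered by lentiviral transduction together with a GFP vector, and cells carrying it were selected with hygromycin. The study reports that G12V cells at first stopped growing and resumed growth after a few weeks. The control cells are labelled as parental, with no vector named. In the second experiment parental MCF10A cells received 10 µM Nutlin-3a, which blocks the binding of MDM2 to p53, or the same amount of its vehicle DMSO for 4 h, with 3 libraries per group. All cells, controls included, grew in medium with epidermal growth factor, insulin, hydrocortisone, cholera toxin and horse serum, and had been passaged no more than 5 times. The labels do not say whether libraries came from separate cultures, although the study speaks of biological replicas, so p-values measure the spread between these libraries.

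S100 proteins are built around a pair of EF-hand loops. On binding calcium most of them expose a surface that grips other proteins, whereas S100A10 is held in an active shape without calcium and forms a complex with annexin A2. S100A8 and S100A9 form the heterodimer calprotectin, which is abundant in neutrophils and is made by squamous epithelium under stress or inflammation. Outside the cell several family members bind the receptors AGER (RAGE) and TLR4. Most family members are encoded in a cluster on chromosome 1 next to the genes of the cornified envelope of the skin. S100A2 is a gene of basal epithelial cells and a known target of p53 and of its relative p63.

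Of the 10 genes, 9 lie on chromosome 1 between positions 151955386 and 153588808 of hg19, and S100P lies on chromosome 4 (6695566 to 6698897, plus strand). S100A10 (151955386 to 151966714) and S100A11 (152004982 to 152009511) stand apart at one end of this stretch. The others follow as S100A9 (153330330 to 153333503, plus strand), S100A8 (153362508 to 153363664), S100A7 (153430220 to 153433137), S100A6 (153507076 to 153508717), S100A4 (153516095 to 153518282), S100A2 (153533585 to 153538306) and S100A14 (153586732 to 153588808). All of those on chromosome 1 except S100A9 are on the minus strand.

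The promoters are shown because they hold a feature that the choice of genes did not use. All 10 genes had RefSeq promoter windows on GRCh37, 13 windows in all, each reaching from 250 bases before to 50 after a start site. The letters TATAA, the core of a TATA box, begin between 40 and 20 bases before the start site on the sense strand in 7 of the 10 genes (S100A4, S100A6, S100A7, S100A8, S100A9, S100A14 and S100P). Over all genes with a window the share was 4.94% (1349 of 27305), and among the other S100 genes it was 3 of 9. In these 7 genes TATAA begins 28 to 31 bases before the start site, and S100A2, S100A10 and S100A11 lack it there. This motif was searched after the windows had been read. Where a gene had several windows, one with TATAA was preferred. For S100A8 its start site lies 115 bases from the annotated start of the counted gene, and the window at that annotated start lacks TATAA. For S100A6 and S100A10 the start sites used lie 250 and 379 bases from the annotated ones. Below are the 60 bases before the start site, 5′ to 3′, with TATAA in capitals, for the calprotectin genes, for S100A7 and S100P, which varied most between libraries of the Nutlin-3a experiment, for S100A14, and for S100A10 and S100A11 as genes without it.
S100A8 (chr1:153363550-153363609, minus strand, 1 of its 3 windows): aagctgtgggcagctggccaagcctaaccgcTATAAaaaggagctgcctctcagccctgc
S100A9 (chr1:153330270-153330329, plus strand): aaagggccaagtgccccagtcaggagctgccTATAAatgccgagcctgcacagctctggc
S100A7 (chr1:153433128-153433187, minus strand): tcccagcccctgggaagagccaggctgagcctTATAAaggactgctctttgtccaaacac
S100P (chr4:6695545-6695604, plus strand): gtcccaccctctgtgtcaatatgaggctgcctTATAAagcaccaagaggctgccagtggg
S100A14 (chr1:153588802-153588861, minus strand): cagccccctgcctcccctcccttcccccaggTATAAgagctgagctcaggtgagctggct
S100A10 (chr1:151966336-151966395, minus strand): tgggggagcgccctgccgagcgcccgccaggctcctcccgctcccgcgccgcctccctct
S100A11 (chr1:152009481-152009540, minus strand): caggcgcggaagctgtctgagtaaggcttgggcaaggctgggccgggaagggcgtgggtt

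Motifs of factors tied to Ras signalling, inflammation and p53 were searched on both strands of the window nearest to each gene's annotated start. The AP-1 letters TGANTCA were found in 1 of the 10 genes, S100A2, and in 7.71% of 35116 windows. The C/EBP letters TTGCNNAA were found in S100A11 and in 10.5% of windows, and the p53 half-site in S100A7 and in 6.63% of windows. None of these matches overlapped another. They are descriptions of letters, and binding was not measured here. The pieces around the AP-1 match, which begins 52 bases before the S100A2 start site, and around the p53 half-site, 103 bases before that of S100A7, are given with the match in capitals.
S100A2 (chr1:153538354-153538383, minus strand, GRCh37): ggagtgggctgTGACTCAcaggcatgtcat
S100A7 (chr1:153433211-153433240, minus strand, GRCh37): acctgatgtgGGGCAAGCCTccaagaaaca

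Libraries of untreated cells held 21538593 to 23683975 counts, and those of the Nutlin-3a experiment 15453226 to 17378734. Reads of the 10 genes made up 0.433% and 0.465% of the counts of the MCF10A libraries, 0.230% and 0.329% in G12V cells, and 0.746% to 1.05% in the Nutlin-3a experiment. As a check of the labels, HRAS was at 72.6 and 65.9 CPM (counts per 1000000 of the scaled library size) in MCF10A and at 631 and 515 CPM in G12V cells. MDM2 and CDKN1A, both p53 targets, rose after Nutlin-3a by 2.54 and 2.16 on the log2 scale. MCF10A libraries expressed the epithelial keratins KRT5, KRT8 and KRT18 throughout, whereas the basal marker KRT14 (402 and 423 CPM in MCF10A) was at 0.0855 and 0.134 CPM in G12V cells.

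S100A2 and S100A6 were the most abundant of the genes per length of transcript in MCF10A. In CPM per kilobase of transcript, S100A2 reached 3025 and 3574 in the MCF10A libraries and S100A6 reached 1381 and 1891. S100A11 (922 to 1024) and S100A10 (912 to 937) followed and overlapped each other, and S100A14 (405 to 615) came below them. S100A9 (53.1 to 281), S100A8 (32.0 to 114) and S100A4 (41.9 to 76.8) overlapped in this scale, above S100P (16.5 to 16.9) and S100A7 (0.924 to 1.38). In G12V cells the order differed. S100A6 led at 1858 to 3027 CPM per kilobase, S100A9 (301 to 794) overlapped S100A11 (493 to 571) and S100A10 (454 to 564), S100A2 stood at 131 to 188, and S100A14 at 0.667 to 1.76.

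G12V cells were compared with MCF10A cells to ask which S100 genes differed between them. S100A14 and S100A2 fell, and no family member of the list was called higher. A DE gene has an adjusted p below 0.05 and an absolute log2 fold change above 0.5 in edgeR's quasi-likelihood test. Of the 10 genes 9 could be tested, since S100A7 was below the filter on low counts, and 2 of the 9 were DE, where 11.0% of all 14376 genes tested were DE (5.01% higher and 5.95% lower). The log2 fold change was above 0 for 3 and below 0 for 6, with a median of -0.86 against -0.0011 over all genes tested. Groups did not overlap for 2 genes that were higher and 5 that were lower, where 27.5% and 27.4% of all genes did not overlap in these directions. With 2 libraries per group an exact permutation test of a single gene cannot go below a two-sided p of 0.333, so the calls rest on the fit across all genes. The count of 2 was 6 with DESeq2 and with edgeR's exact test, which added S100A8, S100A10, S100A11 and S100P. Of all 14376 genes tested, DESeq2 called 2307 and the exact test 2536, against 1575 in the fit reported.

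**Figure D1:**
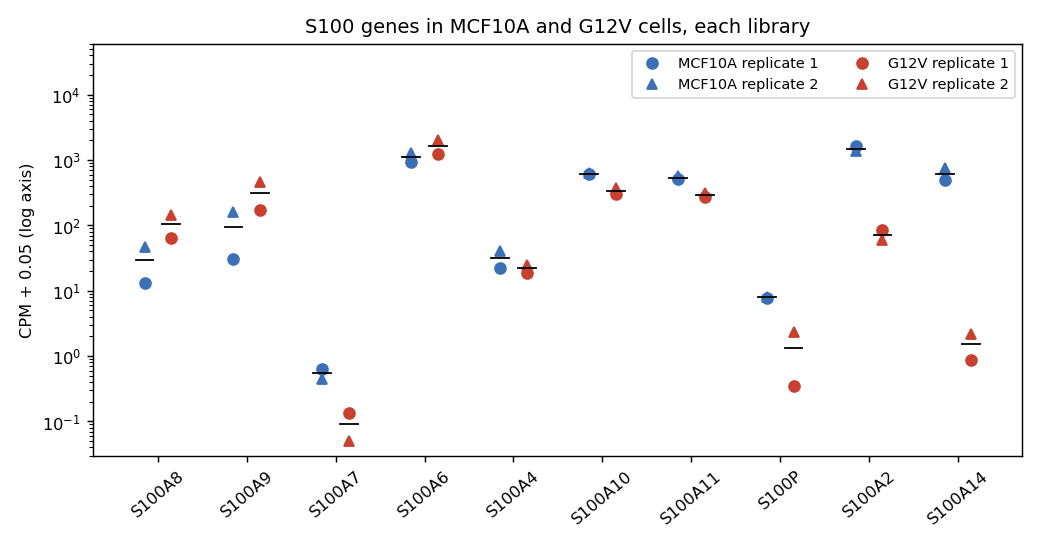
CPM plus 0.05 on a log axis for each S100 gene in the 2 MCF10A libraries (blue) and the 2 G12V libraries (red), with circles for replicate 1, triangles for replicate 2 and bars for the group means. S100A2 and S100A14 are far lower in both G12V libraries, and for S100A8 and S100A9 the G12V libraries lie above MCF10A with a wide spread within each group.

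S100A14, which epithelial cells carry at the membrane and in the cytoplasm, was nearly lost from G12V cells. It was at 493 and 749 CPM in the MCF10A libraries and at 0.812 and 2.14 CPM in the G12V libraries, which rest on 19 and 48 counts. Both G12V libraries lay far below both MCF10A libraries. In these bulk samples fewer cells with a transcript and less of it per cell cannot be told apart. The log2 fold change was -8.72 with a standard error of 0.56 (421-fold lower, adjusted p = 0.0012). It was -9.57 without G12V replicate 2 and -8.18 without G12V replicate 1, and S100A14 was DE in both. S100A16, whose gene ends 1218 bp from that of S100A14, was at 748 and 781 CPM in MCF10A and at 521 and 609 CPM in G12V cells and did not pass the test (log2 fold change -0.44, SE 0.22, adjusted p = 0.294).

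S100A2, the basal epithelial family member, was at 1619 and 1370 CPM in MCF10A and at 85.0 and 59.2 CPM in G12V cells. The groups were far apart compared with the gap between replicates, with a mean of 1495 ± 176 CPM (SD, n = 2) against 72.1 ± 18.3 CPM (SD, n = 2). The log2 fold change was -4.37 with a standard error of 0.31 (20.7-fold lower, adjusted p = 0.0015). Despite the fall S100A2 was still read at 1327 or more counts in each G12V library. Without MCF10A replicate 1 no gene of the whole table was DE, and S100A2 (log2 fold change -4.22) and S100A14 (-8.97) lost their calls with all others.

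The fall of both genes came with that of other genes of basal and squamous epithelium. TP63, which encodes the basal factor p63, was at 119 and 214 CPM in MCF10A and at 0.214 and 0.0892 CPM in G12V cells (adjusted p = 7.9e-04). TP73, which encodes a relative of p63, was DE and lower too (4.09 and 16.1 CPM against 0.556 and 0.401 CPM). Of 8 epithelial markers 6 were DE and lower, where 5.95% of all genes tested were. They were KRT5, KRT14, KRT17, EPCAM, CDH1 and TP63, and KRT8 and KRT18 were not DE. The summed level of the 8 markers ranged from 6856 to 8415 CPM in MCF10A and from 1363 to 1662 CPM in G12V cells. Their part in the fall of S100A2 and S100A14 was not tested.

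S100A10 and S100A11, which bind annexins at membranes, were lower in G12V cells but stood just outside the threshold. S100A10 was at 612 and 629 CPM in MCF10A and at 305 and 378 CPM in G12V cells, and S100A11 at 513 and 570 CPM against 275 and 318 CPM. The groups did not overlap for either gene, and the gap exceeded the distance between replicates. The log2 fold changes of -0.86 (SE 0.22, adjusted p = 0.0631) and -0.87 (SE 0.21, adjusted p = 0.0535) were almost equal. Both were DE with DESeq2, with edgeR's exact test and with library totals in place of TMM factors, and S100A11 also with upper-quartile factors and when 2 libraries had to exceed 1 CPM, so their call depends on the processing. ANXA2, the annexin partner of S100A10, was at 1931 and 1675 CPM in MCF10A and at 1107 and 1316 CPM in G12V cells and did not pass (log2 fold change -0.57, SE 0.26, adjusted p = 0.242).

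S100P, a family member first known from placenta, was rare in all 4 libraries. It was at 7.77 and 7.97 CPM in MCF10A and at 0.299 and 2.27 CPM in G12V cells, which rest on 7 and 51 counts. Both G12V libraries were lower but differed widely from each other. The log2 fold change was -2.61 with a standard error of 0.79 (adjusted p = 0.0963), and the gene was DE with DESeq2 and the exact test. Without G12V replicate 1 the log2 fold change was -1.79 and without G12V replicate 2 it was -4.69, and S100P was DE in both. Without MCF10A replicate 1 it was -2.63 and without MCF10A replicate 2 it was -2.60, and S100P was DE in neither.

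The calprotectin genes were higher in both G12V libraries than in either MCF10A library, without passing the test. S100A8 was at 13.04 and 46.5 CPM in MCF10A and at 64.2 and 147 CPM in G12V cells. S100A9 was at 30.4 and 161 CPM in MCF10A and at 173 and 455 CPM in G12V cells. In both groups replicate 1 was low and replicate 2 high for both genes, and for S100A9 the higher MCF10A library lay just under the lower G12V library. The log2 fold change was 1.83 with a standard error of 0.65 for S100A8 (adjusted p = 0.146) and 1.71 with a standard error of 0.81 for S100A9 (adjusted p = 0.256). Single libraries decide these calls. Without MCF10A replicate 2 the log2 fold changes were 3.01 and 3.37, without G12V replicate 1 they were 2.30 and 2.25, and both genes were DE each time. Without MCF10A replicate 1 they were 1.19 and 0.97, without G12V replicate 2 they were 1.11 and 0.85, and neither gene was DE. S100A8, but not S100A9, was also DE with DESeq2 and with the exact test. With the replicate number as a block in edgeR's quasi-likelihood fit both were DE, as were 28.9% of all genes. The log2 fold changes were then 1.96 and 1.99 (adjusted p = 5.9e-06 and 2.6e-05). With 2 libraries per group the numbers were not shown to pair the libraries.

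Calprotectin is best known from myeloid cells, and several of their markers, though not CD14 and in MCF10A not CSF1R, were at or near 0. FCGR3A, TYROBP and LST1 had no counts in any of the 4 untreated libraries, and PTPRC (CD45) had a single count, in MCF10A replicate 1. The summed level of 8 myeloid markers ranged from 25.4 to 40.8 CPM in MCF10A and from 22.1 to 39.9 CPM in G12V cells, most of it from CD14. CD14 was at 18.0 and 37.0 CPM in MCF10A and at 21.7 and 39.6 CPM in G12V cells. It too was higher in replicate 2 of either group. Of the 2 myeloid markers tested, CSF1R was DE and lower (6.77 and 3.44 CPM against 0.171 and 0.134 CPM). Of 6 fibroblast markers 3 were tested and LUM was DE and higher, from at most 0.0455 CPM to 1.20 CPM in both G12V libraries.

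The paired levels of S100A8 and S100A9 can be read from their ratio of counts within each library. In untreated cells S100A9 had 2.33 and 3.46 counts per S100A8 count in the MCF10A libraries, and 2.69 and 3.10 in the G12V libraries. The ratios of the G12V libraries lay between those of the MCF10A libraries. The ratio moved between 2.33 and 3.46 over these 4 libraries while S100A8 itself ranged 11.5-fold and S100A9 15.3-fold in counts. In the Nutlin-3a experiment the ratio was 1.44, 1.97 and 1.77 with DMSO and 1.62, 1.75 and 1.88 with Nutlin-3a, and the groups overlapped. Tables were counted on different annotations, so ratios are not compared between them.

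**Figure D2:**
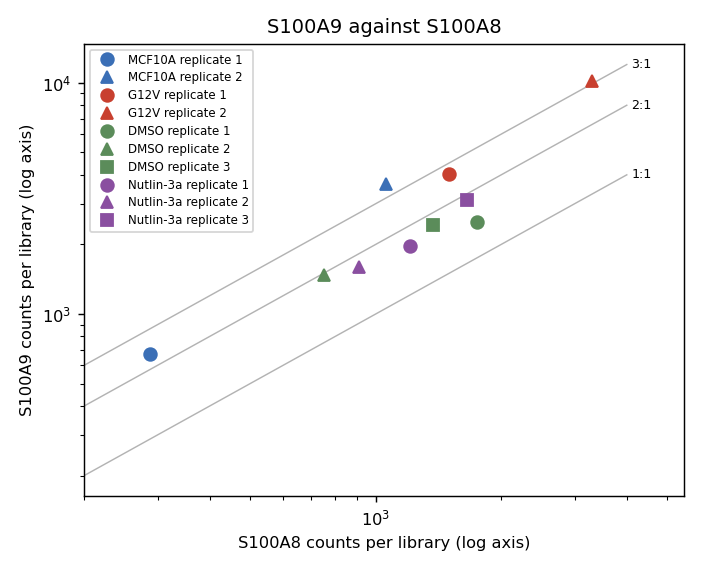
S100A9 counts against S100A8 counts for each of the 10 libraries, both on log axes, with grey lines at ratios of 1, 2 and 3. The untreated libraries lie along ratios of 2.33 to 3.46 and those of the Nutlin-3a experiment along 1.44 to 1.97.

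S100A6 and S100A4, neighbours within the cluster, did not pass in either direction. S100A6, a partner of CACYBP that proliferating cells express strongly, was at 929 and 1273 CPM in MCF10A and at 1251 and 2037 CPM in G12V cells, with overlapping groups (log2 fold change 0.58, SE 0.34, adjusted p = 0.363). S100A4, which binds nonmuscle myosin and is used as a marker of mesenchymal and motile cells, was at 22.2 and 40.8 CPM in MCF10A and at 18.9 and 25.2 CPM in G12V cells. These groups overlapped as well (log2 fold change -0.52, SE 0.34, adjusted p = 0.425). With the replicate number as a block S100A6 was DE and higher (log2 fold change 0.55, adjusted p = 0.0104), and S100A4 was not DE. S100A4 overlaps LOC101928034 on the other strand in the untreated table. The library kit does not mark strand, so reads where this pair overlaps cannot be told apart by strand.

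S100A7, psoriasin of inflamed skin, was close to the floor of detection. It had 13 and 9 counts in the MCF10A libraries and 2 and 0 counts in the G12V libraries. These counts were too few for the filter, and no fold change is given. A count of 0 allows up to 3 counts, and near copies of the gene (S100A7A and S100A7L2) could share its reads.

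**Figure D3:**
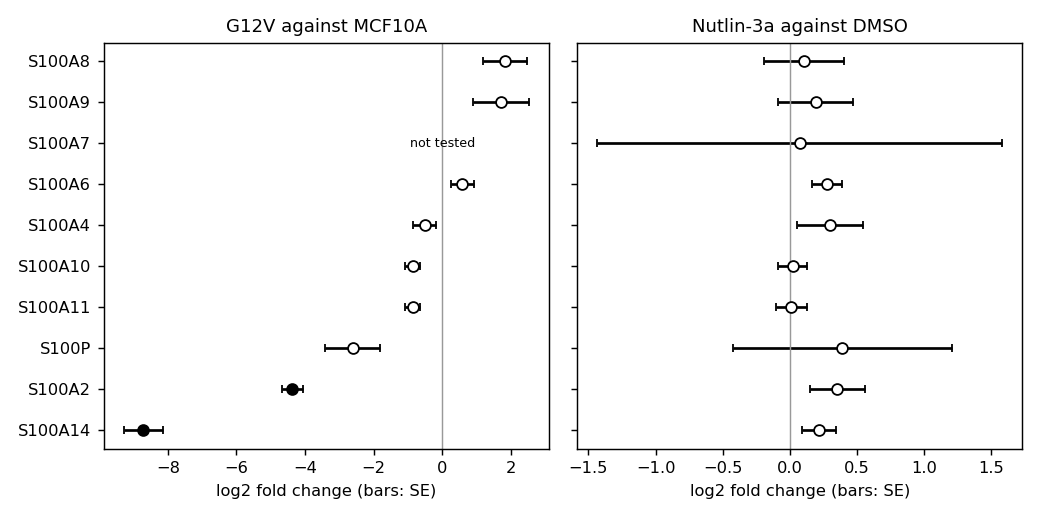
Log2 fold change of each S100 gene with its standard error, G12V against MCF10A on the left and Nutlin-3a against DMSO on the right, with filled points for DE genes. The axes differ in range: on the left values run from -8.72 to 1.83, and on the right from 0.012 to 0.39.

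The other 11 S100 genes of the annotation were read mainly at low level. Of these 4 could be tested and S100A13 was DE and lower, at 98.7 and 126 CPM in MCF10A and at 54.4 and 57.3 CPM in G12V cells (log2 fold change -1.01, SE 0.19, adjusted p = 0.0268). S100A1, S100A3 and S100A16 were not DE, with log2 fold changes of -1.46, 0.99 and -0.44. The remaining 7 were below the filter.

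Among 10 intracellular partners of S100 proteins 1 was DE, a share near the 11.0% of all genes tested. ANXA6, an annexin bound by S100A6, rose from 14.1 and 7.14 CPM to 172 and 208 CPM (log2 fold change 4.16, SE 0.37, adjusted p = 0.0030). The other 9, among them ANXA1, ANXA2, CACYBP, EZR, IQGAP1 and MYH9, had log2 fold changes from -0.84 to 0.28. The median of the 10 was -0.19.

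Among 7 receptors of secreted S100 proteins 2 were DE, both higher, where 5.01% of all genes tested were DE and higher. TLR4, through which extracellular calprotectin signals, was at 3.27 and 5.37 CPM in MCF10A and at 25.3 and 34.1 CPM in G12V cells (log2 fold change 2.78, SE 0.34, adjusted p = 0.0072). MCAM, a cell adhesion molecule and receptor of calprotectin, was at 27.1 and 18.1 CPM against 157 and 161 CPM (log2 fold change 2.82, SE 0.25, adjusted p = 0.0030). The receptor AGER was at 2.32 to 3.29 CPM in all 4 libraries. ALCAM, BSG, CD36, NPTN and AGER were not DE, with log2 fold changes from -0.85 to 0.027, and the median of the 7 was -0.25.

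A list of 18 genes of inflamed squamous epithelium, where calprotectin and psoriasin are usually induced, split in both directions. Of the 14 tested, 5 were DE and higher and 7 were DE and lower, with a median of -1.33. Over all genes tested 5.01% were DE and higher and 5.95% DE and lower. The higher ones were the acute-phase genes SAA1 (35.8 and 59.2 CPM against 326 and 584 CPM) and SAA2, the cytokines IL1A and IL1B (10.4 and 3.30 CPM against 285 and 498 CPM), and the protease inhibitor SERPINB4. The lower ones were the antimicrobial genes LCN2 and SLPI, the cornified envelope genes SPRR1A and SPRR1B, and the keratins of activated epithelium KRT6A (883 and 516 CPM against 63.9 and 55.4 CPM), KRT6B and KRT16. The 4 genes of the list that were not tested (SPRR2A, SPRR2D, SPRR3 and IL36G) were at most at 1.27 CPM in any of these libraries.

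The stretch of chromosome 1 from S100A10 to S100A14 holds 66 genes of the untreated table within 1633 kb. Of these 19 were tested, 8 of them S100 genes of the list. No gene of the stretch was DE and higher and 4 were DE and lower, which is 21.1% of those tested, where 11.0% of all genes were DE and 5.95% were DE and lower. S100A2 and S100A14 are among these 4. The 11 tested genes outside the list had a median log2 fold change of -1.99, and SPRR1A and SPRR1B were the DE genes among them. S100A9 and S100A8, with log2 fold changes of 1.71 and 1.83 that did not pass, lie between the SPRR1 genes and S100A2. The values of SPRR1A (1.00 and 0.969 CPM in MCF10A and 0 in G12V cells) rest on few counts. On the short arm of chromosome 4, which carries S100P, 175 genes were tested, 11 were DE and higher and 30 DE and lower, 23.4% in all, with a median of -0.25.

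**Figure D4:**
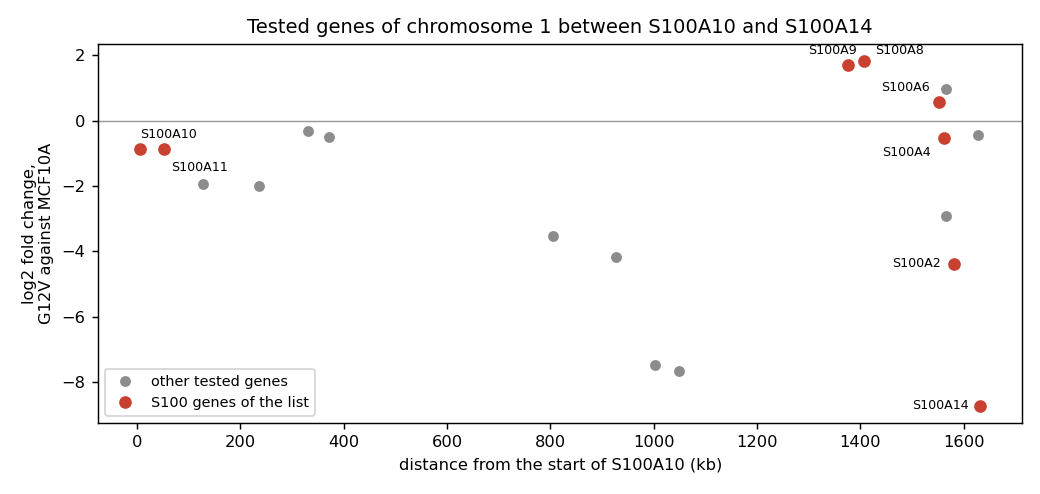
Log2 fold change, G12V against MCF10A, of the 19 tested genes of chromosome 1 from S100A10 to S100A14, against the distance from the start of S100A10 in kilobases, with S100 genes of the list in red and other genes in grey. S100A8 and S100A9 lie above 0 while S100A2 and S100A14, at the far end, and SPRR1A and SPRR1B lie lowest.

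Nutlin-3a was compared with DMSO to ask whether activation of p53 for 4 h moved the S100 genes. By edgeR's quasi-likelihood test 0 of the 10 were DE, where 23 of 13529 genes tested (0.170%) were DE, 21 of them higher. At an unadjusted p below 0.05 there was 1 S100 gene, S100A6, of 463 genes in all, and DESeq2 and the exact test called 0. Replicate numbers paired these libraries, and with the number as a block 165 genes (1.22%) were DE and again 0 of the 10. The log2 fold changes were small and above 0 for all 10, from 0.012 to 0.39 with a median of 0.20 against 0.0066 over all genes. With library totals in place of TMM factors those of S100A10 and S100A11 fell below 0. The smallest two-sided p of an exact permutation test of 3 against 3 libraries is 0.1.

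S100A2 was at 3356, 4746 and 4593 CPM with DMSO and at 4006, 6282 and 5941 CPM with Nutlin-3a, and was higher with Nutlin-3a in 3 of 3 pairs. The groups overlapped, because the Nutlin-3a library numbered 1 lay below the DMSO libraries numbered 2 and 3. The log2 fold change was 0.35 with a standard error of 0.20 (adjusted p = 0.9997). With the replicate block it was 0.34 with an adjusted p of 0.0264, past the threshold of p but below that of the fold change.

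S100A6 was the only gene of the list whose groups did not overlap, and 3.70% of all genes tested were non-overlapping in this direction. It was at 1254, 1267 and 1310 CPM with DMSO and at 1422, 1528 and 1696 CPM with Nutlin-3a (log2 fold change 0.28, SE 0.11, adjusted p = 0.9997). In the annotation of the Nutlin-3a experiment S100A6 overlaps a gene on the other strand. S100A14 was at 955, 909 and 1021 CPM with DMSO and at 980, 1111 and 1266 CPM with Nutlin-3a, higher in 3 of 3 pairs but with overlapping groups (log2 fold change 0.22, SE 0.13). S100A4, at 50.2 to 83.7 CPM with DMSO and 60.05 to 110 CPM with Nutlin-3a, was also higher in 3 of 3 pairs (log2 fold change 0.30, SE 0.25). It overlaps S100A3 on the same strand in this table, so reads of the 2 genes may be shared.

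S100A10 and S100A11 were the steadiest genes of the list. S100A10 was at 692, 590 and 622 CPM with DMSO and at 661, 612 and 659 CPM with Nutlin-3a. S100A11 was at 600, 587 and 673 CPM with DMSO and at 604, 582 and 689 CPM with Nutlin-3a. Over the 6 libraries their highest value was 1.17 and 1.18 times the lowest, and their log2 fold changes of 0.022 (SE 0.11) and 0.012 (SE 0.12) were within the standard error. S100A11 too overlaps a gene on the other strand (NBPF18P) in the annotation of this experiment.

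The calprotectin genes did not move in 1 direction with Nutlin-3a. S100A8 was at 96.7, 46.1 and 80.2 CPM with DMSO and at 74.5, 56.6 and 109 CPM with Nutlin-3a, and S100A9 at 139, 90.9 and 142 CPM with DMSO and at 121, 99.2 and 204 CPM with Nutlin-3a. Both were lower with Nutlin-3a in pair 1 and higher in pairs 2 and 3. The log2 fold changes were 0.11 (SE 0.30) and 0.19 (SE 0.28). In this experiment PTPRC, FCGR3A and TYROBP had no counts in any library. The 8 myeloid markers summed to 12.9 to 14.8 CPM with DMSO and to 13.3 to 15.99 CPM with Nutlin-3a. Most of this came from CSF1R (4.79 to 8.57 CPM over the 6 libraries), CD14 (2.09 to 8.23 CPM) and MPO (0.724 to 3.50 CPM). These 3 markers were tested and were not DE between treatments.

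S100A7 and S100P varied widely between libraries of the same treatment, and both were higher with Nutlin-3a in 3 of 3 pairs. S100A7 was at 20.6, 0.184 and 0.583 CPM with DMSO, from 373, 3 and 10 counts, and at 20.8, 0.868 and 0.921 CPM with Nutlin-3a, from 338, 14 and 14 counts. Both libraries numbered 1 were high and the other 4 were near the floor, a range of 113-fold. S100P was at 10.1, 2.82 and 0.992 CPM with DMSO and at 11.8, 4.59 and 1.97 CPM with Nutlin-3a, again highest in both libraries numbered 1. Their log2 fold changes of 0.074 (SE 1.51) and 0.39 (SE 0.81) carry the widest errors of the list.

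**Figure D5:**
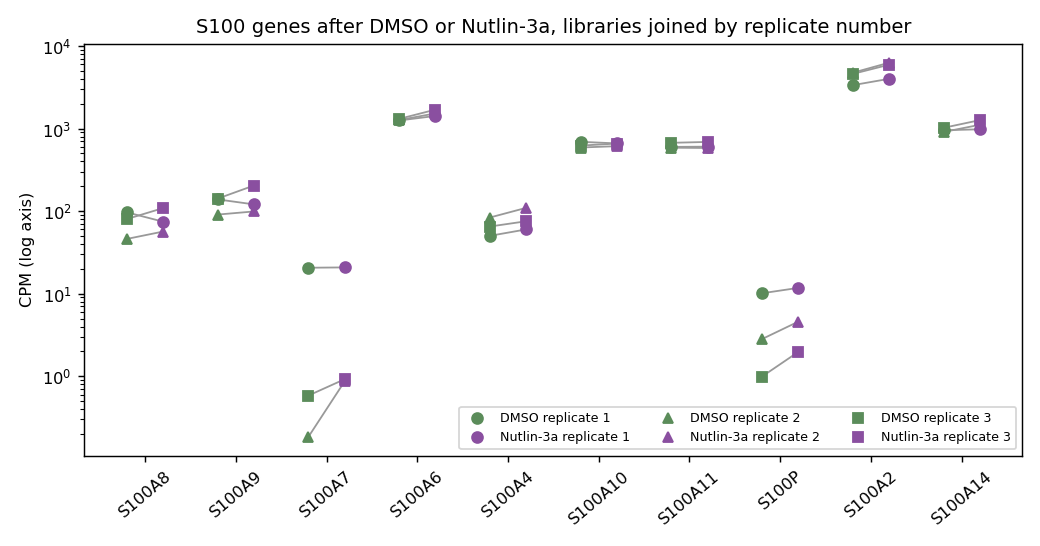
CPM on a log axis for each S100 gene in the 3 DMSO (green) and 3 Nutlin-3a (purple) libraries, with grey lines joining libraries of the same replicate number. S100A10 and S100A11 are nearly level across the 6 libraries, and S100A7 and S100P are spread by replicate number, with both libraries numbered 1 on top.

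The differences between replicate numbers were tested in an F-test of the number with treatment in the model, added after the pattern had been seen. Of the 10 S100 genes 6 differed at an adjusted p below 0.05, where 24.5% of all genes did. The clearest were S100A7 (adjusted p = 1.8e-07) and S100P (1.7e-05), followed by S100A4 (4.4e-04), S100A2 (0.0012), S100A9 (0.0034) and S100A8 (0.0048). S100A6, S100A10, S100A11 and S100A14 did not pass. The order of the numbers was not the same for all of them. Libraries numbered 1 were lowest for S100A2 and S100A4, and libraries numbered 2 were lowest for S100A8 and S100A9.

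Among other squamous genes, KRT16, SPRR1A, SPRR1B, SPRR3, PI3 and LCN2 were highest in both libraries numbered 1, as S100A7 was. KRT6B was too, by a small margin, and several others were not. These genes were named after their values had been seen. KRT16 was at 87.9, 6.14 and 8.87 CPM with DMSO and at 86.6, 5.95 and 8.42 CPM with Nutlin-3a. SPRR1A was at 15.7, 0.245 and 0.642 CPM with DMSO and at 15.9, 0.0620 and 0.526 CPM with Nutlin-3a. KRT6A was highest in the libraries numbered 3, and KRT6B and SERPINB3 did not pass the test between numbers (adjusted p = 0.653 and 0.926). The cytokine gene IL1B was lowest in the libraries numbered 1, at 260, 658 and 693 CPM with DMSO and at 263, 691 and 859 CPM with Nutlin-3a. Of 15 tested genes of the inflamed squamous list 12 differed between numbers, as did 8 of 8 epithelial markers, 3 of 3 tested myeloid markers and 1 of 2 tested fibroblast markers. The summed level of the fibroblast markers ranged from 24.7 to 120 CPM with DMSO and from 24.9 to 148 CPM with Nutlin-3a. Nearly all of this spread came from DCN. It was at 12.9, 109 and 94.5 CPM with DMSO and at 14.1, 137 and 115 CPM with Nutlin-3a. COL1A1 stayed at 9.02 to 11.7 CPM over the 6 libraries. What the replicate numbers stand for is not stated in the labels, and the part of these genes in the spread of the S100 genes was not tested. Without both libraries numbered 1, 0 of the 10 S100 genes were DE between Nutlin-3a and DMSO.

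Partners and receptors of the S100 proteins gave no calls in this experiment in edgeR's quasi-likelihood test. Of 10 partners 0 were DE and 0 had an unadjusted p below 0.05, with log2 fold changes from -0.016 to 0.22. Of the 6 receptors tested 0 were DE and 0 had an unadjusted p below 0.05, with log2 fold changes from -0.22 to 0.063. TLR4 was at 8.87 to 11.3 CPM with DMSO and at 6.91 to 11.6 CPM with Nutlin-3a. Of the 4 other S100 genes tested 0 were DE, and S100A3 had an unadjusted p below 0.05.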

How the data were processed

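RNA-seq libraries were made from poly(A) RNA with a kit that does not mark strand. The authors used TopHat (hg19) for alignment and HTSeq for counting, and the deposited values are raw counts, in 1 table for untreated cells and 1, on another annotation, for the Nutlin-3a experiment. The annotations and the strand setting are not given in the sources used here. Table starts were counted from 0 and are printed from 1. From the counts, each experiment was fitted on its own in edgeR 4.0.16 (R 4.3.3, limma 3.58.1): filterByExpr, TMM, the quasi-likelihood F-test and Benjamini-Hochberg adjustment over all genes tested. Standard errors were obtained by dividing the size of each log2 fold change by √F. CPM (counts per 1000000 of the TMM-scaled library size) were used for levels, and CPM per kilobase use GENCODE transcripts of GRCh37 (1 per gene). DESeq2 1.42.0 was run as an alternative, as were edgeR's exact test, other scaling, filters and prior counts, a replicate block, and fits without single libraries. Scripts were tested on simulated data. The fit of G12V against MCF10A called 8 of 97 genes simulated at an absolute log2 fold change of 1, and 77 of 97 at 2. That of Nutlin-3a against DMSO called 67 of 97 and 94 of 97. In neither experiment is a gene that did not pass therefore shown to be unchanged. After Nutlin-3a the log2 fold changes of the 10 S100 genes (0.012 to 0.39) were smaller than those simulated. Of 21 pairs of libraries 0 were identical.

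The numbers paired the libraries of the Nutlin-3a experiment, since the deviations of same-numbered libraries from their group means correlated at 0.62, 0.60 and 0.64. The S100 genes and all lists were chosen with earlier results of these data known. Named are all 10 genes, every DE gene of the lists, and genes that a sentence on them needs. Read counts without molecular identifiers are not independent molecules, so a floor of 3 counts covers counting error only.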

Additional observations from a re-analysis of the deposited data

How the results depend on the processing

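Of the S100 genes tested between G12V and MCF10A, 2 were DE in the fit reported. The number was 6 with DESeq2 and with edgeR's exact test, 4 with library totals alone, 6 by an unadjusted p below 0.05 with a fold above 1.3 (25.6% of all genes, 3676 of 14376), and 0 to 6 when 1 library was left out, with 0 without MCF10A replicate 1, 4 without MCF10A replicate 2, 6 without G12V replicate 1 and 3 without G12V replicate 2. In untreated cells the deviations of same-numbered libraries correlated at 0.49. With only 2 libraries per group, differently numbered ones give the mirror value of -0.49 by construction. That value alone therefore cannot show that numbers pair the libraries. The replicate block called 8 S100 genes and 28.9% of all genes. The 3 higher were S100A6, S100A8 and S100A9, and the 5 lower were S100A2, S100A10, S100A11, S100A14 and S100P. All genes DE numbered 1575 in the fit reported, 2307 with DESeq2, 2536 with the exact test and 4158 with the block, and 0 to 2129 without 1 library. Leaving out a library leaves a lone sample that is assumed to vary like the other group. Between Nutlin-3a and DMSO 0 S100 genes were DE in every alternative run, and the block changed no call among them, while all DE genes numbered 23 in the fit reported, 91 with DESeq2, 84 with the exact test, 99 without a filter, 165 with the block and 7 to 11 without 1 library. Directions were less firm. With library totals alone the log2 fold change was -0.015 for S100A10 and -0.023 for S100A11. Leaving out 1 library gave log2 fold changes from -2.99 to 4.26 for S100A7, from -0.50 to 1.68 for S100P, from -0.18 to 0.34 for S100A8, from -0.17 to 0.39 for S100A9, from -0.028 to 0.088 for S100A10 and from -0.065 to 0.076 for S100A11. The cause of these changes was not tested. The number of S100 genes that differed between replicate numbers was 6 or 7 in all scalings and filters run. Depth limits S100A7 in untreated cells and S100P in G12V cells.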
